A study of Mus musculus with 20 samples.

Results

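RGS10 knockout BV-2 cells were compared with wild-type BV-2 cells after both had been kept with interferon gamma (IFNγ), across all genes of the count table. The comparison used 10 of the 20 libraries of the series: 5 labelled wild type and 5 labelled RGS10 knockout, each given IFNγ at 10 ng/mL for 48 h. BV-2 is an immortalized mouse microglial line, and its poly(A) RNA was sequenced. In each group libraries 1 to 3 belonged to batch 1, library 4 to batch 2 and library 5 to batch 3, as the labels give them. The other 10 libraries, of the same lines and batches after 48 h in medium alone (vehicle), are used only to show where the difference departs from the one without IFNγ. The sources used here do not say how the knockout was made or how many clones it came from, so the effect of the gene cannot be told apart from a difference between clones. The labels call the replicates biological and give no culture history, so the p-values measure the spread between these libraries.

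RGS proteins speed up GTP hydrolysis by G protein alpha subunits and so shorten the signal of the receptors coupled to them. RGS10 acts on alpha subunits of the Gi family, through which most chemokine and chemoattractant receptors signal, and it is abundant in microglia and other myeloid cells. IFNγ binds a receptor that activates the kinases JAK1 and JAK2, and the signal turns on IRF1, the class II transactivator CIITA, guanylate-binding proteins and antigen presentation, and in many cells slows division.

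The 10 libraries held 19570654 to 29157740 counts. The IFNγ libraries of batches 2 and 3 stood apart from those of batch 1. The 10 most abundant genes took 7.60% to 7.86% of counts in the wild-type libraries of batch 1 and 17.1% and 14.7% in libraries 4 and 5. In the knockout they took 4.81% to 4.92%, then 9.72% and 9.46%. The nuclear RNA Malat1, used as a sign of RNA quality, stood at 55.9 to 62.7 CPM of plain totals in the knockout libraries of batch 1, against 355 to 386 CPM in the wild type. In libraries 4 and 5 it was at 1446 and 1004 CPM in the knockout and 1514 and 955 CPM in the wild type. The part of these gaps in the results was not tested. The biological coefficient of variation was 5.20% among the 6 libraries of batch 1 and 21.6% among all 10. Counts of calls are therefore also given from batches 2 and 3 alone, and without the 4 IFNγ libraries of batches 2 and 3, where that moved them.

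Both lines held the defining transcripts of macrophages. Spi1, which encodes the lineage factor PU.1, ran from 364 to 538 CPM in the wild type and 359 to 546 CPM in the knockout. Ptprc (CD45) ran from 347 to 598 and 392 to 478 CPM, and Adgre1 (F4/80) from 217 to 469 and 281 to 371 CPM. Other such markers were detected at a lower level in the knockout. Csf1r ran from 456 to 611 CPM in the wild type and 208 to 404 CPM in the knockout, without overlap. Lyz2 ran from 3986 to 7196 and 1975 to 3007 CPM, also without overlap, and Cd68 from 1105 to 1704 and 750 to 1125 CPM. Of the markers of resting microglia, Sall1 and Siglech had no read in any of the 10 libraries, Tmem119 stayed under 10 CPM and P2ry12 under 3 CPM in each. Here and below levels are in CPM, the count of a gene relative to its library's size, which was scaled by the trimmed mean of M-values (TMM). The TMM factors were 1.04 to 1.05 in the wild-type libraries of batch 1 and 0.635 and 0.764 in libraries 4 and 5. In the knockout they were 1.05 to 1.06, then 0.892 and 0.879. A factor under 1 raises the CPM of its library.

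Rgs10 transcript was detected in every library of both lines. The wild-type libraries 1 to 5 held 23.3, 22.2, 23.7, 50.0 and 28.7 CPM, and the knockout libraries 1 to 5 held 21.1, 17.8, 17.1, 50.5 and 15.5 CPM. Library 4 was the highest in both groups, and the groups overlapped. The difference was -0.33 ± 0.17 on the log2 scale (knockout minus wild type, ± SE; adjusted p = 0.134, edgeR; exact permutation p = 0.373, two-sided, 5 against 5). Within batches 1, 2 and 3 it was -0.31, 0.016 and -0.88. With plain library totals in place of TMM scaling the difference was -0.18 (adjusted p = 0.413, edgeR). Without knockout library 4 the difference was -0.56 with an adjusted p of 0.00624, and within batch 1 alone it was -0.28 with an adjusted p of 0.00757. Under vehicle Rgs10 fell by 1.17 in the knockout, from 63.0 ± 6.62 to 28.2 ± 4.56 CPM (SD, n = 5), and the 0.84 ± 0.24 by which the difference under IFNγ exceeded it passed the test (adjusted p = 0.0436). An mRNA that is still made can carry a mutation, so this level does not check the labels, and knockout and wild type are used below as the names the labels give.

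Across the 13755 genes tested, 5363 (39%) differed between the lines at an adjusted p under 0.05 in edgeR's quasi-likelihood test with batch as a term. Of all tested genes, 20% (2754) were higher in the knockout and 19% (2609) were lower. Differences past 1 log2 were more often lower (1247 genes) than higher (872 genes), and past 3 log2 they numbered 272 lower and 103 higher. The libraries of the 2 groups did not overlap for 15.1% of all tested genes, and 1998 of the called genes were among them. Of the called genes 4461 (83.2%) had the same sign in each of the 3 batches. They were called from these same libraries, which favours such agreement, so the share does not measure how far the batches repeat each other. A gene without a read in either line in batch 2 was counted as lower there, so the share can include ties. In this bulk RNA, fewer cells of a type and less RNA per cell cannot be told apart. With plain library totals 4852 genes were called, 62.3% of them higher in the knockout against 51.4% with TMM scaling, and the median of all tested genes was 0.13 in place of 0.0061. Batch 1 alone gave 9580 calls, batches 2 and 3 alone gave 1920, and 8276 were called without the 4 IFNγ libraries of batches 2 and 3.

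Under vehicle 27.3% of the tested genes (3753) differed between the lines. Of the 5363 genes called under IFNγ, 2407 (44.9%) had the same call under vehicle, which was 64.1% of the vehicle calls, 60 had the opposite call and 2896 (54.0%) had none. The test of the difference between the 2 differences passed for 6.5% of tested genes (894), 500 with a higher and 394 with a lower value under IFNγ. Of the genes called under IFNγ, 691 passed that test. In what follows, a difference without a unit is on the log2 scale, knockout minus wild type under IFNγ, with its SE after ±. A value relative to vehicle is that difference minus the one under vehicle, and levels in CPM are mean ± SD of 5 libraries. Counts of called list members are to be read beside the 20% higher and 19% lower over all tested genes. Across the 13755 genes the 2 log2 differences correlated at r = 0.757 (Spearman 0.610), a description over genes that share the libraries' scaling and batches. The count of 894 moved with scaling, tool, batch term and libraries: it was 530 with the replicate number as a block, 138 without a batch term, 1480 in DESeq2, 537 with plain library totals and 5371 without the 4 IFNγ libraries of batches 2 and 3. It was 552 to 572 without knockout library 1, 2 or 3 and 1448 and 1437 without knockout library 4 and 5.

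**Figure D1:**
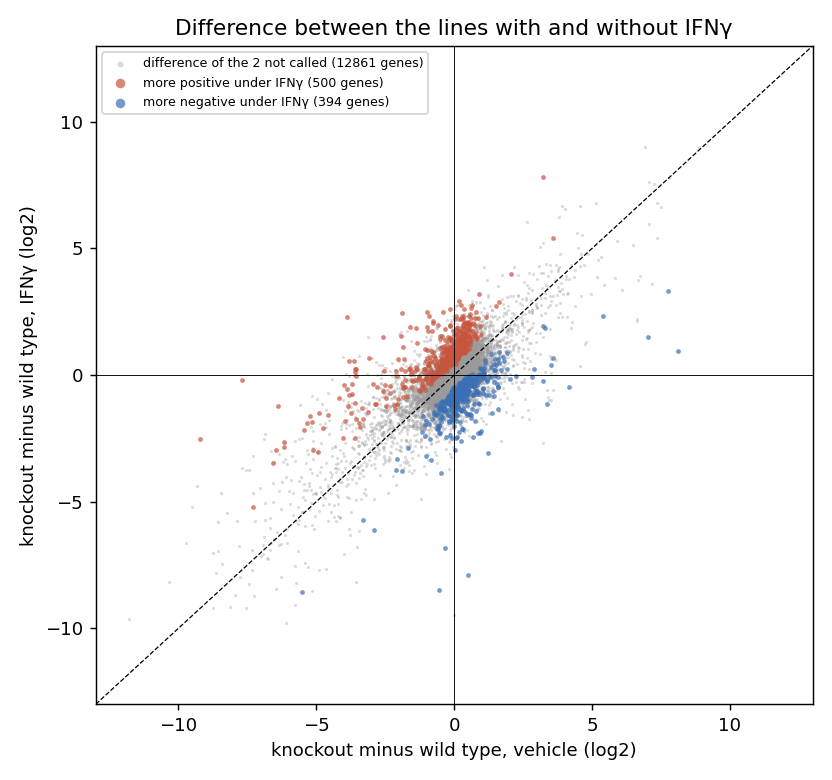
Difference between the lines (knockout minus wild type, log2) under vehicle on the horizontal axis and under IFNγ on the vertical axis, 1 point per tested gene. Points scatter around the dashed line of equal differences (r = 0.757), and the 894 genes for which the 2 differences themselves differed are red (500, more positive under IFNγ) or blue (394, more negative).

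The largest differences were between expressed and all but silent. Among the genes lower in the knockout, Slc2a5, which encodes a fructose transporter of resting microglia, stood at 278, 265, 274, 81.2 and 217 CPM in wild-type libraries 1 to 5. The knockout libraries held 0.792, 0.669, 1.2, 0 and 0.931 CPM, and the groups did not overlap. Slc2a5 was 303-fold lower (-8.24 ± 0.33, adjusted p = 2.5e-12). Itga9, the alpha 9 integrin subunit that binds osteopontin and other matrix proteins, held 42.9, 39.4, 39.8, 17.9 and 56.5 CPM in the wild type and 0, 0, 0.214, 0 and 0 CPM in the knockout. Only knockout library 3 had any read of Itga9, so its fitted difference of -9.62 ± 0.47 went to -12.74 without that library. Ephb3, an ephrin receptor, held 4.94, 5.04, 5.19, 3.59 and 5.38 CPM in the wild type and had no read in the knockout, which makes it at least 186-fold lower.

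The genes without a read in the knockout also took in Afap1, an actin filament adaptor, at least 122-fold lower, and the homeobox gene Hoxb9, at least 122-fold lower. Acp5, the tartrate-resistant acid phosphatase of osteoclasts and macrophages, was at least 132-fold lower. Lin28b, which blocks let-7 maturation, was at least 94.3-fold lower. Fbxo44, a ubiquitin ligase subunit, Ush1c, the scaffold harmonin, and Fnd3c2 were at least 85.5-fold, 94.9-fold and 80.5-fold lower. Fnd3c2 had no read in wild-type library 4 either, and from batches 2 and 3 alone it did not pass the test. Each of these bounds is set against 3 reads over the 5 knockout libraries and covers counting error only. Tshz2, a zinc finger homeobox factor, kept a few reads in the knockout and was lower 521-fold (95% counting interval 144 to 4306). Eml1, a microtubule-binding protein, stood at 21.7 ± 11.9 CPM in the wild type (SD, n = 5) and had reads in knockout library 5 only. Its difference of -8.72 ± 0.68 went to -11.52 without that library.

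In the other direction, Ube2e2, a ubiquitin-conjugating enzyme, held 9.09, 7.07, 7.28, 8.57 and 7.04 CPM in the knockout. In the wild type a single library had a read, at 0.0780 CPM, and Ube2e2 was higher in the knockout 853-fold (95% counting interval 153 to 33747). Slc47a1, an exporter of organic cations, held 0.0426, 0.262, 0.116, 0.156 and 0.495 CPM in the wild type and 19.0, 20.4, 24.6, 142 and 60.6 CPM in the knockout. Its knockout libraries 4 and 5 were the highest, and all 5 lay above the wild type (187-fold, 7.55 ± 0.44, adjusted p = 1.8e-10). Nr2f1, the nuclear receptor COUP-TF1, held 0.851, 0.655, 1.39, 0.546 and 0.557 CPM in the wild type and 14.4, 15.3, 14.6, 107 and 63.6 CPM in the knockout, again highest in libraries 4 and 5 (38.9-fold). Slfn5, an interferon-inducible Schlafen protein, held 1.06, 0.688, 0.387, 0.156 and 1.11 CPM in the wild type and a narrow 29.0, 32.1, 29.6, 25.5 and 27.1 CPM in the knockout. Slfn5 was 42.6-fold higher under IFNγ, by 1.82 ± 0.34 more than under vehicle (adjusted p = 0.00311).

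The homeobox gene Barx2 and the transcriptional coactivator Eya1 had no read in the wild type and were at least 46.2-fold and 40.3-fold higher in the knockout. Pde1c, a calcium-dependent phosphodiesterase of cAMP and cGMP, was higher 63.0-fold (95% counting interval 17.1 to 526). Plekhh2 rose from 0.243 ± 0.126 to 11.6 ± 1.80 CPM, and Stard4, a cholesterol carrier, from 0.399 ± 0.246 to 10.9 ± 5.08 CPM (SD, n = 5). Prkg2, a cGMP-dependent kinase, rose from 0.552 ± 0.482 to 19.3 ± 14.9 CPM, with within-batch differences of 3.18, 7.70 and 7.91. The membrane protein genes Smco4 and Tmem74 were higher by 4.80 ± 0.58 and 5.61 ± 0.65. Fitted differences of genes with so few reads depend on single libraries: without wild-type library 1 Smco4 went to 5.62 and Pde1c from 5.43 to 7.65, without wild-type library 3 Tmem74 went to 6.45, and without wild-type library 4 Ube2e2 went from 9.02 to 10.47. All 24 of these genes except Fnd3c2 had the same call under vehicle. Of all lower genes, 79 had under 0.1 CPM in the knockout and 1 CPM or more in the wild type, against 16 in the reverse direction.

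**Figure D2:**
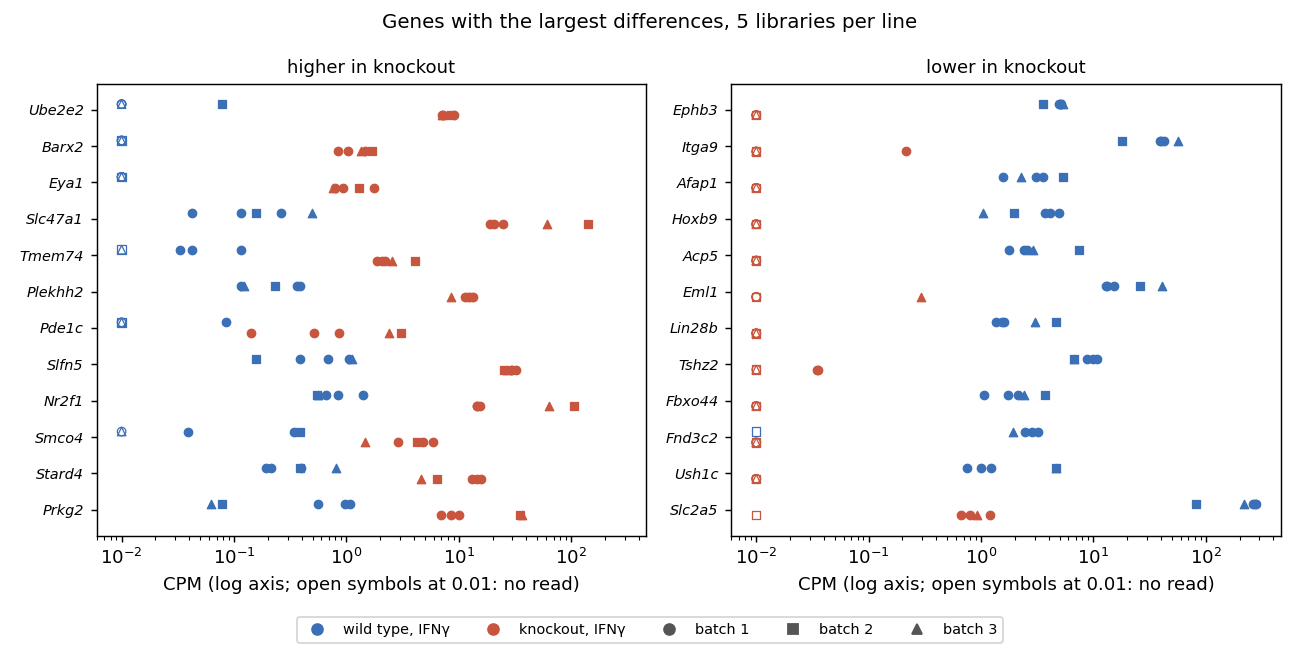
CPM in each of the 10 IFNγ libraries (log axis, open symbols at 0.01 for no read) of 12 genes each way, wild type in blue and knockout in red, with the batch given by the symbol. They had the largest called differences among genes with a mean of 1 CPM or more in the higher group. Each also had the same sign in all 5 same-numbered pairs, which favours symbols that lie apart, and predicted genes were passed over. Fnd3c2 met this rule with 1 pair in which neither line had a read, which was counted as lower. For every gene but Fnd3c2 the blue and red symbols lie apart.

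Genes of mitosis were higher in the knockout under IFNγ without exception among the 29 tested (29 of 29). Their median was 1.59, against 0.0061 for all tested genes. Under vehicle 3 of them were higher, with a median of 0.27, and for 20 the difference itself was larger under IFNγ. The summed level of the 29 genes was 1502, 1612, 1637, 496 and 261 CPM in the wild type and 3498, 3681, 3613, 2228 and 1380.2 CPM in the knockout. The wild type was highest in batch 1, and knockout libraries 4 and 5 were the lowest of their group. Within each batch the knockout was higher, with medians of 1.29, 2.47 and 2.80. The groups overlapped across batches, since knockout library 5 lay below the wild-type libraries of batch 1. Under vehicle the sums ran from 2609 to 5012 CPM in the wild type and 3555 to 4889.6 CPM in the knockout. The 29 calls were also made without the 4 IFNγ libraries of batches 2 and 3, and 28 were made from batches 2 and 3 alone, while 19 were made without a batch term.

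Aurka encodes the Aurora A kinase of spindle assembly. It held 19.3, 21.8, 22.4, 11.6 and 9.34 CPM in the wild type and 118, 120.1, 113, 62.9 and 40.0 CPM in the knockout, without overlap, and was 5.27-fold higher (2.40 ± 0.14, adjusted p = 1.8e-10). Ccnb1, cyclin B1, the partner of CDK1 at entry into mitosis, held 62.1, 65.8, 69.1, 22 and 11.9 CPM in the wild type. In the knockout it held 276, 281, 274, 133 and 74.4 CPM, again without overlap (4.72-fold, 2.24 ± 0.22, adjusted p = 2.3e-07). The difference under IFNγ exceeded that under vehicle by 1.80 ± 0.19 for Aurka and by 1.64 ± 0.30 for Ccnb1 (adjusted p = 4.9e-05 and 0.00307). Tpx2, which activates Aurora A on spindle microtubules, was higher by 1.43 ± 0.12. The ubiquitin-conjugating enzyme of the anaphase-promoting complex, Ube2c, had the largest difference of the list at 2.59 ± 0.39, and the spindle checkpoint kinase Bub1b the smallest at 0.85 ± 0.15, with no call from batches 2 and 3 alone.

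Genes of mitosis share promoter motifs, and the stretches upstream of 4 list members are shown for that reason. A CCAAT box binds the factor NF-Y, and the cell cycle homology region (CHR), searched as TTTGAA or TTTAAA, binds cell cycle repressor and activator complexes. In RefSeq's windows of 300 bases (250 before and 50 after the start of transcription), searched on both strands, CCAAT was in 21 of 27 windows of list members (77.8%) and in 37.4% of all 32851 windows. A CHR was in 23 of 27 (85.2%) against 27.6%, and both were in 20 of 27 (74.1%) against 10.7%. The 27 windows belong to 25 of the 29 genes, a CCAAT and a CHR match can share their end base, and TTTAAA reads the same on both strands. The shares describe sequence letters in these windows and were not tested. The 120 bases before the start of each of 4 genes, chosen after their values were seen, are given 5′ to 3′ on the minus strand of GRCm38.p6, with CCAAT and CHR matches in capitals. Ccnb1 lies at chr13:100786487-100786606, Cdc20, which activates the anaphase-promoting complex, at chr4:118437344-118437463, Aurka at chr2:172370571-172370690 and Ccnb2, cyclin B2, at chr9:70421555-70421674.
Ccnb1: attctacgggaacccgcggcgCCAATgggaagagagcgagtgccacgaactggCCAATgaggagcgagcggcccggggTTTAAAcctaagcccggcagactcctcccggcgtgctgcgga
Cdc20: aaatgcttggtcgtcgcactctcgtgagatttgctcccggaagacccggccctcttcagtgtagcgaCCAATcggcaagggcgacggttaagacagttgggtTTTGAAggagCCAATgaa
Aurka: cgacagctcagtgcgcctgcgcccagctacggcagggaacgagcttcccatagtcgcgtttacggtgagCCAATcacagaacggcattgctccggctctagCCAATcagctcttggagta
Ccnb2: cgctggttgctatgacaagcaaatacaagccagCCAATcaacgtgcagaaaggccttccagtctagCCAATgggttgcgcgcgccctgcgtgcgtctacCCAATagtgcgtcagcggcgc
Ccnb1 has CCAAT at -99 and -67 and a CHR at -42, counted from the start of transcription. Cdc20 has CCAAT at -53 and -8 with a CHR at -18, Aurka has CCAAT at -51 and -19, and Ccnb2 has CCAAT at -87, -54 and -21. Cdc20 and Ccnb2 were higher in the knockout by 2.01 ± 0.30 and 1.99 ± 0.37.

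Of the genes of S phase, 19 of 29 were higher and 1 lower (median 0.92), with medians of 0.77, 1.34 and 1.18 in batches 1, 2 and 3. Under vehicle 3 were higher (median 0.24). Their sum was 2516, 2676, 2737, 1364 and 1260.2 CPM in wild-type libraries 1 to 5 and 4222, 4274, 4183, 1994 and 1739 CPM in the knockout, so that the knockout was higher within each batch while the groups overlapped across batches. E2f1, the transcription factor of S phase entry, rose from 45.4 ± 6.59 to 101 ± 23.8 CPM (SD, n = 5; 1.15 ± 0.12). Rfc3, a subunit of the clamp loader, rose by 1.51 ± 0.15, and the helicase subunits Mcm3 and Mcm7 were higher by 1.85 ± 0.34 and 1.6 ± 0.33. Cdt1, which loads that helicase and is destroyed in S phase, was the single lower member, at -0.58 ± 0.13 (adjusted p = 0.00173), and was lower, at -0.71 relative to vehicle, where its difference was 0.12 and not called. Without a batch term 8 of the 29 genes were called higher.

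**Figure D3:**
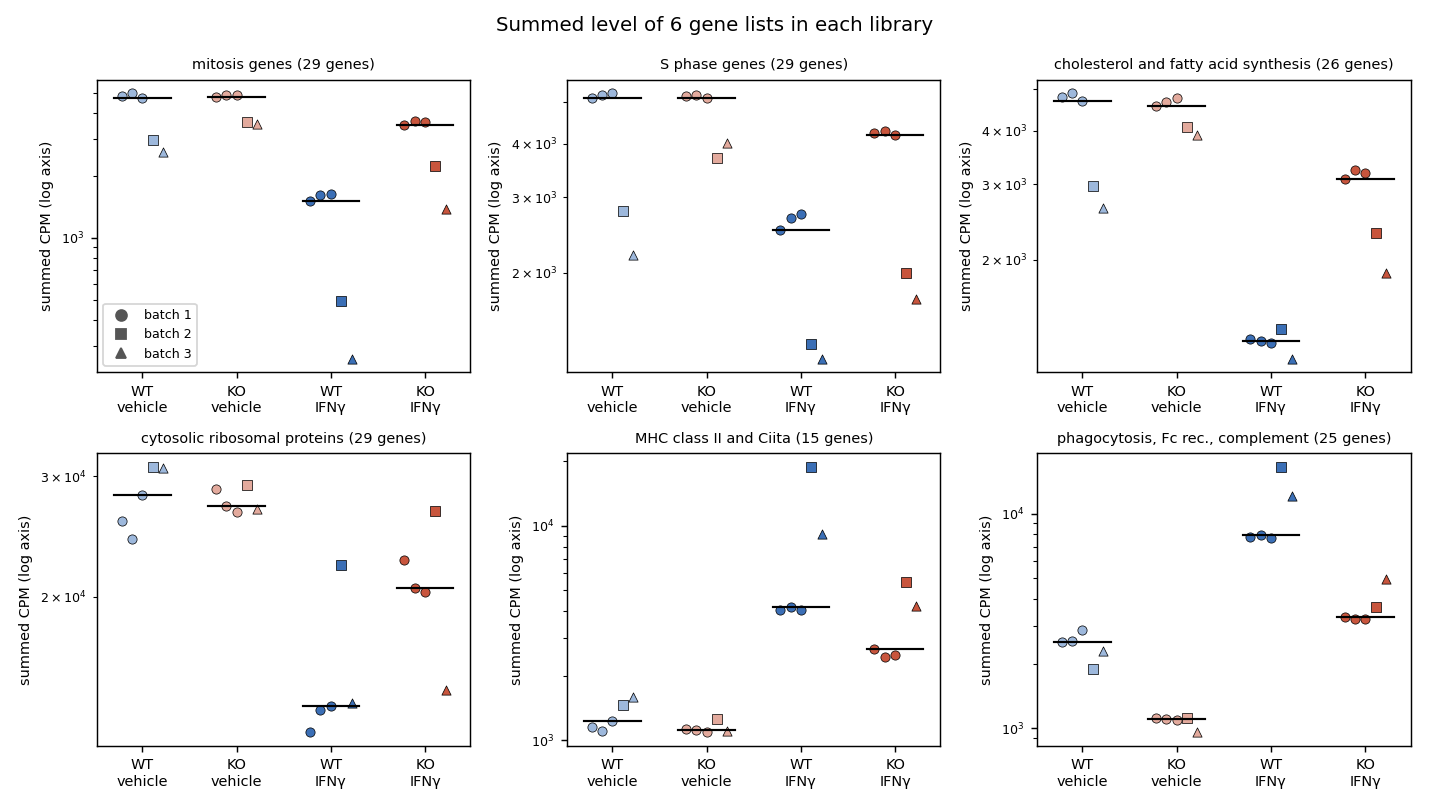
Summed CPM of 6 gene lists in each of the 20 libraries (log axes), by line and treatment, with the batch given by the symbol and the group median as a line. For the mitosis list the IFNγ groups sit at 261 to 1637 CPM (wild type) and 1380.2 to 3681 CPM (knockout), and for phagocytosis, Fc receptors and complement at 7702 to 16522 and 3222 to 4961 CPM.

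Enzymes of cholesterol and fatty acid synthesis were higher in the knockout. The test passed for 20 of 26 genes, all higher (median 0.88), against 7 under vehicle (median 0.26), and for 9 the difference was larger under IFNγ. Their sum was 1308, 1290.5, 1278, 1381 and 1174 CPM in the wild type and 3079.8, 3242, 3194, 2304 and 1859 CPM in the knockout, with no overlap. Scd2, the stearoyl-CoA desaturase, held 93.9, 95.3, 84.1, 91.9 and 121 CPM in the wild type and 549, 571, 582, 257 and 370.2 CPM in the knockout (4.60-fold, 2.20 ± 0.18, adjusted p = 2e-08). Under vehicle the lines held 1132 ± 249 and 1135 ± 116 CPM of Scd2, and the difference of the differences was 2.18 ± 0.25 (adjusted p = 4.9e-05). Fdft1, squalene synthase, was higher by 1.49 ± 0.14. Insig1, which retains the sterol sensor in the endoplasmic reticulum, was higher by 2.32 ± 0.30. From batches 2 and 3 alone 10 genes of the list were called, all higher, and 24 of 27 were called without the IFNγ libraries of those batches.

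Genes of lipid efflux and lipid droplets went mostly the other way, with 12 of 19 lower and 2 higher (median -0.39). Apoe, the lipid carrier apolipoprotein E, held 559.8, 579.6, 640.5, 1736 and 956 CPM in the wild type and 33.1, 29.6, 28.2, 34.7 and 42.5 CPM in the knockout. No library overlapped, and Apoe was 24.7-fold lower (-4.62 ± 0.20, adjusted p = 3.7e-12), as it was under vehicle (-4.82). Plin2, the coat protein of lipid droplets, held 1034, 1025, 1006, 441 and 2041 CPM in the wild type, lowest in library 4 and highest in library 5, and 185, 178, 198, 135 and 241 CPM in the knockout. Plin2 was 5.67-fold lower (-2.50 ± 0.22). Under vehicle Plin2 stood at 116 ± 9.33 and 121 ± 6.64 CPM, and the difference of the differences was -2.57 ± 0.30 (adjusted p = 6.6e-05). Nr1h3, the oxysterol receptor LXRα, was lower, at -1.96 ± 0.18. The cholesterol exporter Abca1 was higher by 0.61 ± 0.16 and the lysophospholipid acyltransferase Lpcat3 by 0.78 ± 0.14. Neither Abca1 nor Lpcat3 passed the test from batches 2 and 3 alone, and Abca1 did not without a batch term.

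Cytosolic ribosomal protein genes were higher in 21 of 29 cases and lower in 0 (median 0.55), against 2 higher and 2 lower under vehicle (median 0.034). The medians were 0.68, 0.48 and 0.14 in batches 1, 2 and 3. In batches 2 and 3 alone, which hold 4 of the 10 IFNγ libraries, 1 gene was called and the median was 0.29. Without the IFNγ libraries of those batches 26 were. Rps23, which lines the decoding centre, held 204, 269, 247, 389 and 212 CPM in the wild type and 721, 557, 551, 1135 and 391 CPM in the knockout. Library 4 was the highest of each group for Rps23, and the groups just did not overlap (2.49-fold, 1.32 ± 0.17, adjusted p = 4.4e-06). Rpl7 and Rps6 were higher by 0.96 ± 0.13 and 0.98 ± 0.15.

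The 6 most abundant genes called higher included Hk3, a hexokinase of myeloid cells (1585 ± 580.2 and 2139 ± 709.9 CPM in wild type and knockout, SD, n = 5), and the chaperone Hsp90ab1 (1309 ± 260.3 and 2004 ± 472 CPM). The ribosomal genes Rpl10, Rpl4 and Rack1 and the glycolytic enzyme Aldoa were the others, with differences of 0.55 ± 0.14, 0.56 ± 0.12, 0.56 ± 0.13 and 0.43 ± 0.15. None of these 6, nor Rpl7 and Rps6, passed the test from batches 2 and 3 alone. Hk3 and Aldoa did not pass without a batch term. Aldoa also lost its call with the replicate number as a block and in 7 of the 10 fits that left out 1 library (0.36 to 0.43), those without wild-type library 1, 2, 3 or 5 or knockout library 1, 2 or 3.

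The 6 most abundant genes called lower took in secreted and lysosomal products of macrophages. Psap, the precursor of the saposins that help to degrade sphingolipids, fell from 23050.0 ± 18262 to 5706 ± 3384 CPM (-1.92 ± 0.29). The lysosomal protease Ctsb fell from 21225 ± 13825 to 9296 ± 2827 CPM (-1.10 ± 0.24), and Gpnmb, a glycoprotein of lysosome-rich macrophages, from 24676 ± 15712 to 11362 ± 6986 CPM (-1.12 ± 0.19). Spp1, osteopontin, was lower, at -1.44 ± 0.24 under IFNγ and at -3.14 ± 0.26 under vehicle, where its difference was the larger (adjusted p = 0.00527). Fth1, ferritin heavy chain, and B2m, the light chain of MHC class I, were lower, at -0.72 ± 0.24 and -0.68 ± 0.21. Fth1 was not called without wild-type library 4 (-0.43) or 5 (-0.55) or knockout library 2 (-0.68), and B2m was not without wild-type library 4 (-0.52) or 5 (-0.56). Gpnmb, Fth1 and B2m lost their calls from batches 2 and 3 alone and without a batch term, and Spp1 without a batch term.

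The receptor and transcription factors of the IFNγ pathway were lower in 7 of 19 cases and higher in 0 (median -0.33). Under vehicle 7 were lower and 1 higher (median -0.47), and the difference relative to vehicle was called higher for 1 and lower for 1. Jak2, a kinase bound to the IFNγ receptor, held 90.0, 91.0, 84.3, 288 and 283 CPM in the wild type and 40.9, 45.3, 42.1, 45.2 and 114 CPM in the knockout. Wild-type libraries 4 and 5 were the highest, and knockout library 5, at 114 CPM, overlapped the wild-type libraries of batch 1. Jak2 was 2.72-fold lower (-1.44 ± 0.22, adjusted p = 3.9e-05), as under vehicle (-1.43). Jak1, its partner, was lower, at -1.13 ± 0.21, and at -1.10 relative to vehicle, where the lines held 159 and 155 CPM. Socs3, a feedback inhibitor of JAK signalling, fell from 535 ± 736 to 123 ± 124 CPM (-1.86 ± 0.35). Irf1, a transcription factor that IFNγ induces, differed by -0.39 ± 0.28 (adjusted p = 0.288) and did not pass the test. Irf1 passed it at a like difference with a batch term per treatment (-0.39, adjusted p = 0.00161), in edgeR's fit of the 10 IFNγ libraries alone (-0.39, adjusted p = 0.0123), within batch 1 alone (-0.38) and without the 4 IFNγ libraries of batches 2 and 3 (-0.38), so its call depends on the model and the libraries fitted. Without those 4 libraries 10 of the list were lower and 4 higher, and from batches 2 and 3 alone 3 were lower.

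Of the interferon-inducible GTPases, which attack vacuoles that hold microbes, 6 of 19 were lower and 1 higher (median -0.45). Under vehicle 7 were lower and 0 higher (median -0.62), and the difference relative to vehicle was called for 0 of them. Gbp11, a guanylate-binding protein, held 52.2, 53.1, 52.3, 36.6 and 95.2 CPM in the wild type and 9.02, 9.89, 9.59, 2.78 and 8.32 CPM in the knockout, with no overlap (7.47-fold lower, -2.90 ± 0.28, adjusted p = 1.4e-07). Gbp4 fell from 1868 ± 845 to 491 ± 219 CPM and Gbp10 from 73.9 ± 42.5 to 37.8 ± 29.1 CPM, whereas Tgtp1 was higher by 1.2 ± 0.30. Gbp10 was not called without a batch term, Tgtp1 was not called by DESeq2, and neither was called from batches 2 and 3 alone. Members of this family are near copies of each other, so reads may have been split between them.

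The antiviral interferon-stimulated genes had 3 of 29 higher and 1 lower, with a median of -0.011 that turned to 0.17 with plain library totals. This list depended on the batch: its medians were 0.16, -0.18 and -0.69 in batches 1, 2 and 3, and 13 were higher and 3 lower without the 4 IFNγ libraries of batches 2 and 3, against 1 higher and 4 lower from batches 2 and 3 alone. Ifih1, the RNA sensor MDA5, held 57.2, 57.3, 55.3, 29.7 and 58.7 CPM in the wild type and 122, 133, 136, 86.6 and 135 CPM in the knockout. Library 4 was the lowest of each group, and all knockout libraries lay above the wild type (2.41-fold, 1.27 ± 0.13, adjusted p = 3.1e-07). Ddx58, the sensor RIG-I, was higher by 1.2 ± 0.18, with within-batch differences of 1.70, 0.021 and 0.90 and no call from batches 2 and 3 alone. Rsad2, viperin, was lower, at -1.05 ± 0.36. Rsad2 lost its call without a batch term and without wild-type library 4 (-0.82) or 5 (-0.55) or knockout library 1 (-0.98), 2 (-1.0) or 3 (-1.03).

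Transcripts of Ciita and several genes of the MHC class II pathway were lower in the knockout. Of 15 genes tested, 8 were lower, 0 higher and 7 not past the test (median -1.41), with medians of -0.85, -2.18 and -1.53 in batches 1, 2 and 3, and under vehicle 6 were lower. Their sum was 4040.1, 4191, 4036, 18828 and 9175 CPM in wild-type libraries 1 to 5 and 2653, 2453, 2504, 5499 and 4234 CPM in the knockout. Ciita, the transactivator of class II genes, held 37.6, 36.2, 36.3, 120.2 and 77.7 CPM in the wild type and 11.5, 12.4, 10.0, 11.5 and 16.5 CPM in the knockout. Wild-type libraries 4 and 5 were the highest, no library overlapped, and Ciita was 4.35-fold lower (-2.12 ± 0.25, adjusted p = 2.2e-06). Cd74, the invariant chain, held 1428, 1523, 1439, 9309 and 3724 CPM in the wild type and 418, 381, 404, 1031 and 707 CPM in the knockout (4.92-fold lower, -2.30 ± 0.28). Relative to vehicle the difference was -1.77 ± 0.39 (adjusted p = 0.00965). H2-Aa, a class II alpha chain, fell from 299.9 ± 397 to 29.2 ± 12.6 CPM (-2.51 ± 0.40) and had no read in the knockout under vehicle. Ifi30, a lysosomal thiol reductase that prepares antigens, was lower, at -1.41 ± 0.17.

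MHC class I genes showed no common direction, with 3 of 22 higher and 4 lower (median -0.0041, or 0.17 with plain library totals). The immunoproteasome subunit Psmb9 was higher by 0.63 ± 0.15 under IFNγ and lower, at -0.43 under vehicle, a called difference of 1.06 ± 0.21. Psmb9 was not called from batches 2 and 3 alone. Tapbpl, a peptide editor of class I molecules, was lower, at -1.21 ± 0.21, and at -1.34 relative to vehicle. The batches differed in sign, with class I medians of 0.21, -0.35 and -0.46 in batches 1, 2 and 3. Without the 4 IFNγ libraries of batches 2 and 3, 12 class I genes were higher and 3 lower, and from batches 2 and 3 alone 0 were higher and 2 lower (median -0.34).

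Receptors and opsonins of phagocytosis were lower in the knockout. Of 25 genes, 21 were lower and 1 higher (median -1.95), with medians of -1.47, -2.19 and -1.82 in batches 1, 2 and 3, against 17 and 0 under vehicle (median -2.01). Their sum was 7817, 7986, 7702, 16522 and 12026 CPM in the wild type and 3290.4, 3222, 3229, 3683 and 4961 CPM in the knockout, and the groups did not overlap. C1qc, a chain of the complement component that tags debris and synapses, held 847, 900.4, 885, 2051 and 1097 CPM in the wild type and 126, 113, 118, 93.7 and 97.3 CPM in the knockout (11-fold lower, -3.46 ± 0.40, adjusted p = 1.7e-06). C1qa was lower, at -2.98 ± 0.43, or at -2.30 without wild-type library 4. Both C1q chains were further apart under vehicle, where the knockout held 3.55 ± 2.56 CPM of C1qc against 318 ± 97.1, and the difference of the differences was 3.10 ± 0.54 for C1qc and 3.50 ± 0.62 for C1qa. Fcgr2b, the inhibitory Fc receptor, was lower, at -2.40 ± 0.24 and at -1.35 relative to vehicle, and Mrc1, the mannose receptor, at -2.05 ± 0.21. The scavenger receptors Marco and Msr1 were lower, at -3.50 ± 0.52 and -1.99 ± 0.34. Clec12a, an inhibitory lectin, was the member higher in the knockout (1.33 ± 0.33), with no call without a batch term. Without the 4 IFNγ libraries of batches 2 and 3, 18 were lower and 2 higher.

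Markers of disease-associated microglia, a state marked by lipid and lysosomal genes, were lower in 17 of 25 cases and higher in 1 (median -0.82). Igf1, a growth factor of that state, fell from 147 ± 29.0 to 43.8 ± 7.69 CPM (-1.74 ± 0.14), and Trem2, its receptor for lipids, did not pass the test (274 and 286 CPM). Without a batch term 10 of the list were lower. Markers of resting microglia were higher in 4 of 16 cases and lower in 6. Mertk, which takes up dying cells, fell from 58.3 ± 35.5 to 12.6 ± 7.5 CPM, and Fcrls from 1.46 ± 0.533 to 0.108 ± 0.114 CPM. Among the higher members were the fractalkine receptor Cx3cr1 and the lysophosphatidylserine receptor Gpr34, both at a low level. Cx3cr1 stood at 1.03 ± 0.502 and 2.90 ± 1.98 CPM, with within-batch differences of 2.49, -0.82 and -0.92, and its sign turned to -0.97 from batches 2 and 3 alone. It was not called from the 10 IFNγ libraries alone. Gpr34 stood at 0.556 ± 0.510 and 2.43 ± 1.08 CPM and was not called from batches 2 and 3 alone, where 0 of the list were higher and 4 lower.

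Of the transcription factors and markers of the macrophage lineage, 10 of 23 were lower and 3 higher (median -0.19). Lyz2, lysozyme, fell from 5133 ± 1213 to 2343 ± 439 CPM (-1.12 ± 0.19), with a called difference of 0.93 relative to vehicle, and Cd68, a lysosomal glycoprotein, from 1306 ± 265 to 854 ± 155 CPM. Cebpa, a factor of myeloid differentiation, was lower, at -1.73 ± 0.23, and Cebpd was higher by 1.25 ± 0.14. Klf2, a factor linked to quiescent leukocytes, rose from 2.49 ± 1.34 to 10.6 ± 5.50 CPM, opposite in sign to vehicle (-0.76, not called) and with a called difference of 2.81 ± 0.64. Lyz2, Cd68 and Cebpa did not pass the test from batches 2 and 3 alone, where 1 lineage gene was lower and 3 were higher.

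Receptors for chemoattractants, most of which couple to Gi, were lower in 13 of 24 cases and higher in 4 (median -0.97, against -0.28 under vehicle). For 6 receptors the difference was lower under IFNγ than under vehicle and for 1 higher. C5ar1, the receptor for the complement fragment C5a, held 132, 127, 116, 128 and 149 CPM in the wild type and 16.1, 15.2, 16.2, 1.36 and 11.1 CPM in the knockout. Knockout library 4 was the lowest, the groups did not overlap, and C5ar1 was 12.6-fold lower (-3.65 ± 0.32, adjusted p = 6.2e-08). Cxcr4, the receptor for CXCL12, held 24.3, 24.8, 31.1, 24.1 and 33.0 CPM in the wild type and 10.3, 8.94, 9.42, 15 and 11.7 CPM in the knockout (2.58-fold lower, -1.37 ± 0.21). Under vehicle Cxcr4 differed by -0.20 and was not called, and the difference of the differences was -1.16 ± 0.29 (adjusted p = 0.0218). S1pr2, a sphingosine-1-phosphate receptor that restrains migration, was lower, at -1.24 ± 0.12 and likewise at -1.15 relative to vehicle. Gpr84, a receptor for medium-chain fatty acids, was higher by 1.86 ± 0.47, with no call without a batch term and a value of -0.041 from batches 2 and 3 alone. From batches 2 and 3 alone 9 receptors were lower and 0 higher.

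Chemokine genes were lower in 7 of 18 cases and higher in 0 (median -0.62). Under vehicle 9 were lower and 1 higher, with a median of -1.485. The difference relative to vehicle was called higher for 1 member and lower for 1. Ccl9 held 68.2, 64.6, 62.2, 95.9 and 78.5 CPM in the wild type and 11.2, 10.1, 10.5, 11.8 and 7.73 CPM in the knockout, with no overlap (7.27-fold lower, -2.86 ± 0.19, adjusted p = 9.8e-10), and stood at -1.2 relative to vehicle. Ccl8, a ligand that IFNγ induces, fell from 151 ± 30.4 to 22.2 ± 18.9 CPM. Ccl24, eotaxin-2, was lower 129-fold (95% counting interval 43.9 to 629.9) and its fitted value went from -6.93 to -7.80 without knockout library 2. Cxcl10 and Ccl2, ligands of CXCR3 and CCR2, did not pass the test (0.23 ± 0.29 and 0.25 ± 0.30), and Cxcl10 passed it in batch 1 alone (0.19). Batches 2 and 3 alone gave 5 chemokine genes lower and 1 higher, with a median of -0.13. Without the 4 IFNγ libraries of those batches 11 were lower and 1 higher.

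Genes of the matrix and of its proteases were lower in 13 of 21 cases and higher in 0 (median -1.14). Mmp9, gelatinase B, held 52.2, 49.8, 48.6, 226 and 218 CPM in the wild type, highest in libraries 4 and 5, and 2.37, 2.53, 2.87, 0.908 and 19.3 CPM in the knockout, highest in library 5. The groups did not overlap, and Mmp9 was 25.3-fold lower (-4.66 ± 0.38, adjusted p = 2.4e-08). Timp2, an inhibitor of such proteases, was lower, at -1.16 ± 0.13, and Plau, the urokinase, at -1.10 ± 0.28. Plau was not called from batches 2 and 3 alone or without a batch term. From batches 2 and 3 alone 5 were lower and 1 higher, and without a batch term 5 were lower and 0 higher.

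Of the integrins and adhesion molecules, 7 of 24 were lower and 5 higher (median -0.28), against 19% lower and 20% higher over all tested genes. Besides Itga9, F11r, the junctional adhesion molecule A, fell from 16.5 ± 4.91 to 0.0946 ± 0.113 CPM (-7.42 ± 0.47, or -8.01 without knockout library 5), and the integrin chain Itgb5 from 70.7 ± 32.0 to 23.7 ± 6.30 CPM. Itga4, the alpha chain of VLA-4, rose from 33.4 ± 6.37 to 98.0 ± 39.6 CPM (1.46 ± 0.20), by 1.21 more than under vehicle. The hyaluronan receptor Cd44 was higher by 0.59 ± 0.11. Itga4 and Cd44 did not pass the test from batches 2 and 3 alone, where 5 of the list were lower and 0 higher.

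Of the genes of the actin machinery, 10 of 39 were higher and 7 lower, against 20% higher and 19% lower over all tested genes. Their median was 0.050 (-0.21 from batches 2 and 3 alone). Tiam1, an exchange factor that activates Rac, held 14.7, 12.3, 12.8, 11.7 and 7.24 CPM in the wild type and 0.310, 0.774, 1.11, 0.227 and 1.28 CPM in the knockout (16.1-fold lower, -4.01 ± 0.33, adjusted p = 2.3e-08). Rac1 itself held 303, 296, 289, 357 and 315 CPM in the wild type and 503, 493, 509.8, 471 and 438 CPM in the knockout, a narrow range above every wild-type library (1.55-fold, 0.63 ± 0.10). Rac1 was not called from batches 2 and 3 alone, where 1 of the list was higher and 5 were lower. Without the IFNγ libraries of those batches 18 were higher and 9 lower. Cdc42, the GTPase of filopodia and polarity, fell from 551 ± 42.3 to 343 ± 65.9 CPM, and the atypical GTPase Rhoh from 2.41 ± 1.10 to 0.237 ± 0.213 CPM. Swap70, which binds F-actin and Rac, was higher by 1.03 ± 0.10, of which 0.49 was in excess of vehicle.

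Guidance receptors and ligands were lower in 7 of 20 cases and higher in 2. The ephrin receptor Epha2 fell from 4.33 ± 1.73 to 0.271 ± 0.254 CPM and the semaphorin Sema4b from 60.8 ± 16.6 to 15.4 ± 7.88 CPM. Sema4d was higher by 0.56 ± 0.12. Vegfa, a growth factor that draws microglia and vessels, was lower, at -1.2 ± 0.16 under IFNγ and at 0.014, not called, under vehicle (difference -1.21 ± 0.23). Its receptor Kdr was higher by 1.84 ± 0.30, which was -1.46 relative to the 3.30 under vehicle. Sema4d and Kdr did not pass the test from batches 2 and 3 alone, where 5 of the list were lower and 0 higher. Without the IFNγ libraries of those batches 11 of the list were lower and 5 higher.

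The G protein pathway on which RGS10 acts differed in single genes. Of the 16 G protein subunits, 5 were lower and 0 higher, with a median of -0.030 that became 0.13 with plain library totals. Gnaq, the alpha subunit that activates phospholipase C, held 143, 137, 138, 133 and 120.0 CPM in the wild type and 87.5, 85.2, 92.7, 87.6 and 94.3 CPM in the knockout. The groups did not overlap, and Gnaq was 1.5-fold lower (-0.59 ± 0.086, adjusted p = 2.5e-05). Its relative Gna11 was lower, at -0.63 ± 0.13 and Gnai2, the main Gi alpha subunit of leukocytes, at -0.63 ± 0.17, from 751 ± 305 to 473 ± 40.1 CPM. Gnai3, another Gi alpha subunit, did not pass the test (0.027 ± 0.12), but did in batch 1 alone and without the 4 IFNγ libraries of batches 2 and 3 (0.19 in both). The medians of the subunits were 0.075, -0.59 and -0.27 in batches 1, 2 and 3. Gnaq and Gna11 did not pass from batches 2 and 3 alone, where 0 subunits were higher and 2 lower (median -0.43), and without the IFNγ libraries of those batches 7 were higher and 5 lower.

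Other members of the RGS family were higher in 4 of 10 cases and lower in 1. Rgs18, an RGS protein of platelets and myeloid cells, held 1.32, 1.21, 1.2, 0.0780 and 0.248 CPM in the wild type and 10.7, 12.3, 10.6, 0.511 and 4.54 CPM in the knockout. Libraries 4 and 5 were the lowest of each group, and knockout library 4 lay within the wild-type range. Rgs18 was 8.76-fold higher (3.13 ± 0.45, adjusted p = 1.9e-05), with 2.03 under vehicle. Rgs14 rose from 31.9 ± 6.57 to 65.3 ± 21.0 CPM, and Rgs20, at 0.179 ± 0.147 and 0.881 ± 0.207 CPM, was higher by 2.29 ± 0.56 (2.93 without wild-type library 1). Rgs1, a strong induced inhibitor of chemokine signalling, was lower, at -0.82 ± 0.32 with an adjusted p of 0.0497, against a called rise of 1.44 ± 0.33 under vehicle (difference -2.26 ± 0.46, adjusted p = 0.00672). Rgs1 lost its call with plain library totals, without a batch term, with the replicate number as a block and in 7 of the fits that left out 1 library (-0.85 to -0.65), those without wild-type library 1, 2, 3 or 5 or knockout library 1, 2 or 3. Rgs14, Rgs20 and Rgs1 did not pass from batches 2 and 3 alone, where 1 RGS gene was higher and 0 lower. Without the IFNγ libraries of those batches 5 were higher and 4 lower.

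Of the kinases and effectors downstream of these receptors, 8 of 25 were higher and 5 lower. Grk3, a kinase that desensitizes G protein-coupled receptors, held 3.02, 3.18, 2.32, 5.85 and 3.47 CPM in the wild type and 0, 0.106, 0, 0 and 0 CPM in the knockout. A single knockout library had a read, and Grk3 was lower 127-fold (95% counting interval 43.2 to 619.6), with a fitted -6.75 that went to -9.29 without knockout library 2. Grk5 was lower, at -0.97 ± 0.20 and Grk6 higher by 0.60 ± 0.12. Plcg1, a phospholipase C, rose from 14.7 ± 5.07 to 29.9 ± 4.26 CPM, by 1.09 more than under vehicle, and the cAMP phosphodiesterase Pde7a from 6.09 ± 3.03 to 16 ± 5.15 CPM. Grk5 and Grk6 did not pass from batches 2 and 3 alone, where 3 of the list were higher and 3 lower.

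Genes of calcium entry through STIM and ORAI, which chemoattractants open by way of phospholipase C, were higher in 3 of 19 cases and lower in 4. These counts were near the 20% higher and 19% lower over all tested genes. Stim1, the calcium sensor of the endoplasmic reticulum, was higher by 0.47 ± 0.12 and the channel Orai3 by 0.91 ± 0.14. Saraf, which inactivates the channel, fell from 265 ± 90.3 to 163 ± 35.1 CPM (-0.67 ± 0.14). Stim1 and Orai3 did not pass from batches 2 and 3 alone, where 0 of the list were higher and 2 lower.

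Inflammatory cytokines and enzymes were lower in 9 of 23 cases and higher in 3 (median -0.53). Il1a, interleukin 1 alpha, held 72.7, 71.8, 64.7, 97.5 and 174 CPM in the wild type and 2.75, 4.08, 2.95, 3.41 and 10.4 CPM in the knockout. Library 5 was the highest of each group, without overlap, and Il1a was 21.3-fold lower (-4.41 ± 0.20, adjusted p = 6.2e-12). Il10, an inhibitory cytokine, fell from 17.8 ± 35.4 to 0.288 ± 0.317 CPM (-4.67 ± 0.83), a value that moved to -3.26 without wild-type library 5, -5.68 without knockout library 4 and -4.03 without knockout library 5. Nos2, inducible nitric oxide synthase, was lower, at -1.46 ± 0.32, with no call from batches 2 and 3 alone or without a batch term, and Tnf did not pass the test (0.38 ± 0.43). From batches 2 and 3 alone 4 were lower and 0 higher, and without the IFNγ libraries of those batches 13 were lower and 5 higher.

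Toll-like receptor and NF-κB genes were higher in 6 of 29 cases and lower in 5, near the shares over all tested genes. Cd14, the coreceptor for lipopolysaccharide, held 474, 477, 478, 457 and 1372 CPM in the wild type and 122, 111, 122, 162 and 265 CPM in the knockout, library 5 highest in each, with no overlap (3.96-fold lower, -1.99 ± 0.21). Relative to vehicle Cd14 stood at -1.45. Irak3, a kinase-like inhibitor of Toll signalling, was lower 257-fold (95% counting interval 70.8 to 2129.6), with a fitted -7.53 that went to -8.13 without knockout library 5. Tlr1 and the ubiquitin ligase Traf6 were higher by 0.93 ± 0.13 and 0.90 ± 0.18. Without the 4 IFNγ libraries of batches 2 and 3, 10 were higher and 11 lower, and from batches 2 and 3 alone 4 were higher and 3 lower.

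Of the checkpoint and costimulatory genes, 10 of 16 were lower and 1 higher (median -1.23, against -0.35 under vehicle), and 5 differences were lower under IFNγ than under vehicle. Cd300lf, an inhibitory receptor for lipids, held 190.2, 203, 195, 415 and 313 CPM in the wild type and 60.1, 58.5, 59.9, 58.6 and 65.0 CPM in the knockout. The knockout libraries were nearly alike, and no library overlapped (4.29-fold lower, -2.10 ± 0.23, adjusted p = 9e-07). Its relative Cd300a was lower, at -1.25 ± 0.13 and the costimulatory ligand Cd80 at -2.26 ± 0.22. Relative to vehicle they stood at -1.53 (Cd300lf), -1.41 (Cd300a) and -1.11 (Cd80). Cd274, the ligand PD-L1, and Cd40 were lower, at -1.39 ± 0.28 and -1.90 ± 0.25. Cd274 was not called without a batch term.

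Of the AP-1, EGR and MAPK phosphatase genes, 8 of 21 were lower and 3 higher (median -0.28, but 0.41 from batches 2 and 3 alone). Fos fell from 90.2 ± 47.6 to 21.2 ± 10.1 CPM (-2.08 ± 0.25) and Egr3 rose from 18.2 ± 17.7 to 69.7 ± 59.5 CPM (2.03 ± 0.41). The phosphatase gene Dusp4 was lower, at -1.53 ± 0.19 under IFNγ and higher by 0.58 under vehicle, a called difference of -2.11 ± 0.26. Dusp4 did not pass from batches 2 and 3 alone, where 3 of the list were lower and 3 higher. Without the IFNγ libraries of those batches 13 were lower and 3 higher.

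**Figure D4:**
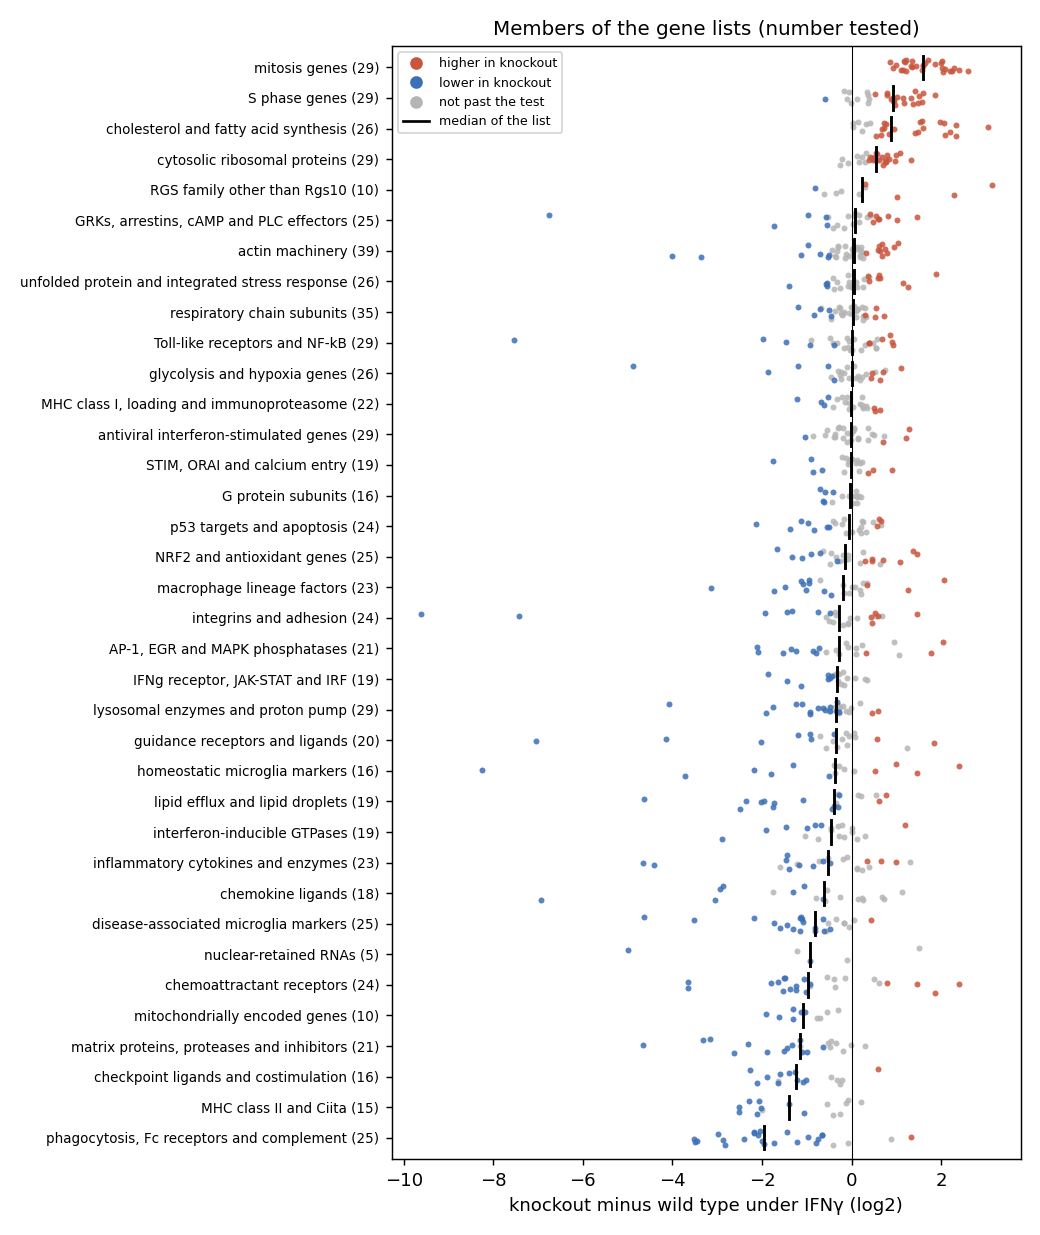
Log2 difference under IFNγ (knockout minus wild type) of each tested member of the gene lists with 5 or more tested members (number in brackets), ordered by the list median (black line), with called members in red (higher) or blue (lower) and the others in grey; the vertical scatter within a list has no meaning. The mitosis list is the highest (median 1.59) and the list of phagocytosis, Fc receptors and complement the lowest (median -1.95), and fitted values past -5 rest on few reads in the knockout.

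Some genes departed most from their difference under vehicle. Calhm6, a channel protein of the calcium homeostasis modulator family, was lower, at -1.61 ± 0.23 under IFNγ and at -5.23 ± 0.40 under vehicle, a difference of 3.62 ± 0.49. In the knockout Calhm6 stood at 0.0781 ± 0.0795 CPM under vehicle and 19.8 ± 5.16 CPM under IFNγ. Kmo, kynurenine 3-monooxygenase, was higher by 1.90 ± 0.48 under IFNγ and lower, at -1.61 under vehicle, at 0.197 ± 0.196 and 0.742 ± 0.365 CPM against 6.79 ± 3.89 and 2.00 ± 0.874 CPM. Cited1, a transcriptional coregulator, was higher by 2.30 ± 0.90 under IFNγ with an adjusted p of 0.0489 and lower, at -3.87 under vehicle. Its level was low throughout, at 0.313 ± 0.569 and 1.68 ± 2.41 CPM under IFNγ and 0.353 ± 0.250 and 0.0253 ± 0.0382 CPM under vehicle. Its call under IFNγ was lost with RLE size factors, without a batch term, with the replicate block, from batches 2 and 3 alone and in 8 of the 10 fits that left out 1 library (1.63 to 2.59). It held without wild-type library 4 (3.21), and the value fell furthest without knockout library 4 (1.63). Nxpe5 stood at 0.569 ± 0.469 and 0.0881 ± 0.0887 CPM under IFNγ and at 1.6 ± 1.39 and 0.0161 ± 0.0359 CPM under vehicle, lower in the knockout both times, and was not called under IFNγ without a batch term. H2-Aa and C1qa, given above, complete the 6 genes with the largest upward departure. Kmo lost its call from batches 2 and 3 alone and without a batch term.

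In the downward direction, Adam28, a membrane protease of leukocytes, stood at 1.31 ± 0.523 CPM in the wild type under IFNγ and had no read in the knockout, at least 50.3-fold lower. Under vehicle the lines held 0.00922 and 0.0162 CPM of Adam28, and its fitted -7.91 went to -8.60 without wild-type library 5. Hapln3, which links hyaluronan to proteoglycans, stood at 5.72 ± 2.17 and 0.0512 ± 0.0762 CPM under IFNγ and at 0.0316 ± 0.0492 and 0.0250 ± 0.0381 CPM under vehicle. Its difference under IFNγ was -6.82 ± 0.75, or -7.94 without knockout library 4. Hyal1, a hyaluronidase, fell from 21.1 ± 13.4 to 0.336 ± 0.331 CPM, which was -3.24 relative to vehicle. Cc2d2a, a protein of the cilium base, was higher in the knockout under both treatments, at 0.0897 ± 0.0863 and 0.962 ± 0.379 CPM under IFNγ, and had no read in the wild type under vehicle. Fnd3c2, given above, stood at 0.507 ± 0.597 and 0.312 ± 0.126 CPM under vehicle. Cc2d2a was not called from batches 2 and 3 alone. Differences under vehicle of genes with almost no read there depend on the small count added in fitting.

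The difference between the lines was not even along the genome. The median of the tested genes of chromosome 19 was -0.39 (496 genes), with 40.3% called lower and 4.64% higher, and under vehicle it was -0.38. Chromosomes 10, 12 and 9 had medians of -0.31, -0.30 and -0.29. For chromosome 18, left out of the figure, the median was -0.155 (318 genes), with 29.6% lower and 13.5% higher. Under vehicle the median of chromosome 18 was -0.163. Chromosome 13 had a median of 0.39, with 39.1% higher and 7.52% lower, and 0.38 under vehicle, and chromosome X and chromosome 1 had medians of 0.30 and 0.19. In batches 1, 2 and 3 the medians were -0.36, -0.35 and -0.39 for chromosome 19 and 0.30, 0.39 and 0.41 for chromosome 13. Chromosomes were taken from GENCODE vM21 by gene ID, and the number of copies of each chromosome in either line was not measured.

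**Figure D5:**
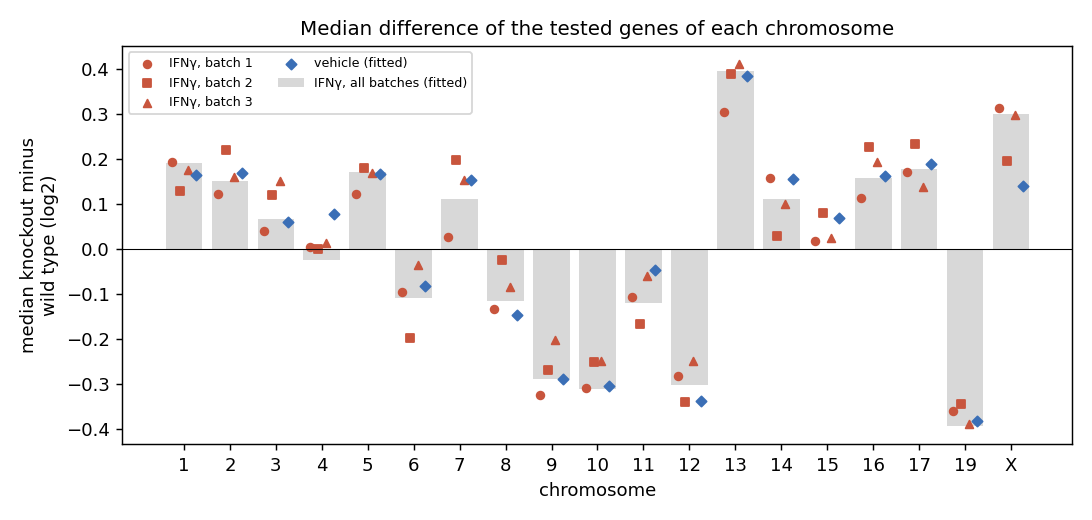
Median log2 difference between the lines (knockout minus wild type) of the tested genes of each chromosome, under IFNγ over all batches (bars) and in each batch (red symbols) and under vehicle (blue diamonds), with chromosome 18 left out. Chromosome 19 has the lowest and chromosome 13 the highest median, -0.39 and 0.39 under IFNγ.

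Mitochondrially encoded genes were lower in 6 of 10 cases (median -1.08), but the batches differed in sign, at -1.80, 0.78 and -0.063, and from batches 2 and 3 alone none was called and the median was 0.27. The gene of cytochrome b, mt-Cytb, stood at 581 ± 358 and 176 ± 77.0 CPM in wild type and knockout. It turned to 0.31 from batches 2 and 3 alone and was not called from the 10 IFNγ libraries alone.

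Markers of other cell types were low in both lines. Under 1 CPM in each of the 10 libraries were 6 of 9 neuron markers, 10 of 12 markers of astrocytes and oligodendrocytes, 8 of 12 of fibroblasts and endothelium and 13 of 15 of lymphocytes and granulocytes. Stmn2, Gad1, Aqp4, Mog, Olig1, Col3a1, Lum, Cd8a, Nkg7, Ncr1 and S100a9 had no read. Summed on plain totals, the neuron markers ran from 5.53 to 17.3 CPM in the wild type and from 0.971 to 3.15 CPM in the knockout, and the lymphocyte and granulocyte markers from 6.07 to 7.91 and from 0.707 to 3.12 CPM. The astrocyte and oligodendrocyte markers ran from 1.65 to 3.55 and from 1.13 to 2.78 CPM and the fibroblast and endothelial markers, mostly Vwf, from 31.4 to 47.6 and from 22.8 to 39.0 CPM. Of the 9 genes of these 3 lists that were tested, Mbp, Vwf, Cd4 and S100a8 were called lower, and none was called higher. Mbp, Vwf and Cd4 were not called from batches 2 and 3 alone, Vwf was not without a batch term, and Cd4 was not without wild-type library 4 (-1.71), without knockout library 1 (-1.92) or without the 4 IFNγ libraries of batches 2 and 3. S100a8 went from -2.54 to -1.84 without wild-type library 4. The 3 neuron markers tested were lower in the knockout: Map2, a microtubule-associated protein, fell from 10.6 ± 5.90 to 0.893 ± 0.194 CPM, Tubb3 from 3.43 ± 0.922 to 1.5 ± 0.686 CPM, and Slc17a7, a glutamate transporter, was at least 43.4-fold lower. Tubb3 did not pass from batches 2 and 3 alone. The part of these markers in the other results was not tested.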

How the data were processed

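Poly(A) RNA of 20 BV-2 libraries was sequenced. The authors deposited whole-number counts per gene for each library. FastQC, Trim Galore, STAR, DESeq2 and GRCm39 are named per the submitters' processing notes, while the sources used here do not give the counting tool, its use of strand or the annotation, so reads of overlapping, antisense or near-identical genes may be shared. Symbols and chromosomes came from GENCODE vM21 by gene ID (51948 IDs, 91.2%, and all but 0.482% of counts), and promoter sequences from RefSeq with GRCm38.p6.

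Of 56941 genes, 28314 had no read and 13755 passed edgeR's filterByExpr over the 4 groups. R 4.3.3 with edgeR 4.0.16 fitted all 20 libraries (TMM, robust quasi-likelihood, group plus batch, 14 residual degrees of freedom). The difference under IFNγ, that under vehicle and the difference between them were tested, each with Benjamini-Hochberg adjustment over the 13755 genes and a threshold of 0.05. Single values of Rgs10 had an exact permutation test over 252 splits, whose smallest p is 0.0079. Alternatives used limma 3.58.1 and DESeq2 1.42.0, other scalings, filters and batch terms, and left out libraries. Leaving out the 4 IFNγ libraries of batches 2 and 3 was chosen after seeing the data.

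Library totals ran from 19570654 to 29157740 counts, so 3 reads over a group of 5 came to about 0.0276 CPM in the wild type and 0.0259 CPM in the knockout. Counting intervals cover counting error only. Libraries of 1 group and batch differed by more than sampling noise (chi-square per degree of freedom 3.69 to 7.47), so they are not copies of the same counts. Between batches of 1 group this value was 123 to 397. Neither range can show whether the libraries of batch 1 came from independent cultures. Each library was counted as 1 replicate, as labelled. Same-numbered libraries of the lines deviated together over all genes (r = 0.377 to 0.472), but not within batch 1 (-0.039 to -0.024), so the numbers 4 and 5 mark the batch. Batch is a term of the model, but both treatments share it, so a batch shift that differs between treatments is not absorbed. With a batch term per treatment 6714 genes were called under IFNγ and 2360 for the difference between treatments.

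The comparison, the 40 gene lists and the rule for named genes were chosen with earlier results of these data known. The rule took the 12 called genes each way with the largest difference, up to 3 members of each list each way by smallest p, the 6 each way with the largest departure from vehicle and the 6 most abundant each way. Some of the list members it selects are not reported here, and 1 gene with only a clone name is not named. Ube2c, Bub1b, Cdc20, Ccnb2, Mcm3, Mcm7, Insig1, Irf1, Marco, Msr1, Trem2, Gpr84, Cxcl10, Ccl2, Plau, Gnai3, Nos2, Tnf, Cd274 and Cd40 were added after their values were seen.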

Additional observations from a re-analysis of the deposited data

Results flagged for a closer look

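Single libraries stood apart from the other 4 of their group by a gap above Dixon's 95% critical value for 5 values. For 5 like values chance gives this in about 1 in 20 groups. Each group here joins 3 libraries of batch 1 to single libraries of batches 2 and 3, so that rate need not hold. Where 4 libraries had no read, any read in the other exceeds the critical value. That was so for Itga9 and Grk3 in the knockout and Ube2e2 in the wild type. In the wild type, library 4 stood apart for Rgs10 (50.0 CPM), Ephb3 (3.59 CPM), Ube2e2 (0.0780 CPM), Ifih1 (29.7 CPM), C1qc (2051 CPM) and the sum of the ribosomal protein genes (22273 CPM). Wild-type library 5 did for Gbp11 (95.2 CPM) and Cd14 (1372 CPM). In the knockout, library 5 stood apart for Jak2 (114 CPM), Mmp9 (19.3 CPM), Il1a (10.4 CPM), Cd300lf (65.0 CPM) and the sum of the genes of phagocytosis, Fc receptors and complement (4961 CPM). Knockout library 4 did for Rgs10 (50.5 CPM) and Gbp11 (2.78 CPM), library 3 for Itga9 (0.214 CPM) and library 2 for Grk3 (0.106 CPM). All but Itga9 and Grk3 were in the libraries of batches 2 and 3, which are single libraries in each group.

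The difference between the lines under IFNγ departed from that under vehicle for 65 of the named genes, by edgeR's test of the difference itself. The values that follow are the log2 difference under IFNγ minus that under vehicle. Upward, it was 6.69, 6.18, 3.62, 3.51, 3.51, 3.50, 3.10 and 2.81 for H2-Aa, Cited1, Calhm6, Kmo, Nxpe5, C1qa, C1qc and Klf2, in that order. It was 2.25, 2.23, 2.18, 2.13, 1.82, 1.80, 1.69 and 1.64 for Ube2c, Insig1, Scd2, Ccnb2, Slfn5, Aurka, Spp1 and Ccnb1, in that order. It was 1.47, 1.39, 1.37, 1.21, 1.16, 1.09, 1.06 and 0.96 for Phgdh, Cdc20, Mrc1, Itga4, Tpx2, Plcg1, Psmb9 and Rps6, in that order. It was 0.93, 0.85, 0.84, 0.84, 0.84, 0.72, 0.66 and 0.49 for Lyz2, Bub1b, Fdft1, Rps23, Rgs10, Lpcat3, Rack1 and Swap70, in that order.

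Downward, it was -8.41, -7.97, -6.50, -4.42, -3.24, -3.07, -2.57 and -2.26 for Adam28, Fnd3c2, Hapln3, Cc2d2a, Hyal1, Tshz2, Plin2 and Rgs1, in that order. It was -2.11, -1.97, -1.78, -1.77, -1.68, -1.63, -1.53 and -1.46 for Dusp4, Plau, Ddit4, Cd74, Pfkfb3, Cd274, Cd300lf and Kdr, in that order. It was -1.46, -1.45, -1.41, -1.35, -1.34, -1.22, -1.21 and -1.21 for Vwf, Cd14, Cd300a, Fcgr2b, Tapbpl, Cebpa, Vegfa and Hmox1, in that order. It was -1.20, -1.16, -1.15, -1.11, -1.10, -1.0, -0.92 and -0.92 for Ccl9, Cxcr4, S1pr2, Cd80, Jak1, Hk3, Nr1h3 and Gpnmb, in that order. It was -0.71 for Cdt1. The number of such calls moved with scaling, tool, batch term and libraries, and values of genes with almost no read in a group depend on the small count added in fitting.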

How the results depend on the processing

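Of the 185 genes named besides Rgs10, 179 passed the test under IFNγ, and 119 of these kept their call in each of the 23 alternatives that tested them. The other 60 lost it in 1 or more. From batches 2 and 3 alone 51 lost their calls and 3 turned in sign: Cx3cr1 (-0.97), Gpr84 (-0.041) and mt-Cytb (0.31). That comparison rests on 8 libraries, 4 of them with IFNγ. Without a batch term 21 lost their calls. Leaving out 1 library lost 1 to 6 calls of named genes.

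The 5363 calls under IFNγ stayed within 1.5-fold under other scalings, filters, tools and batch terms (3590 to 6714), and became 9580 in batch 1 alone, 1920 from batches 2 and 3 alone and 8276 without the IFNγ libraries of those batches. Leaving out each library in turn gave 4613 to 5689. Under vehicle the 3753 calls became 2318 without a batch term, 6224 from the vehicle libraries alone, 8072 in batch 1 alone and 847 from batches 2 and 3 alone. The 894 calls of the difference between treatments became 537 with plain library totals, 1480 in DESeq2, 138 without a batch term, 2360 with a batch term per treatment, 7096 in batch 1 alone, 121 from batches 2 and 3 alone and 5371 without the IFNγ libraries of those batches, and 552 to 1448 when 1 library was left out. The cause of these changes was not tested, and the fits that left libraries out also had fewer samples.

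With the replicate number as a replicate block in place of batch, 4786 genes were called under IFNγ, 3204 under vehicle and 530 for the difference between treatments. Aldoa, Rgs1 and Cited1 lost their calls under the block, and it changed no other call of a named gene. Rgs10 stood at -0.34 under the block (adjusted p = 0.168).

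Rgs10 was past the threshold with a batch term per treatment (-0.35), in batch 1 alone (-0.28), without knockout library 4 (-0.56) and without the IFNγ libraries of batches 2 and 3 (-0.28), and ran from -0.56 to -0.24 when 1 library was left out. Depth limits the genes with few or no reads in 1 line, whose fitted values moved with single libraries as given beside them.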

Other observations

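Lysosomal enzymes and proton pump subunits were lower in the knockout under IFNγ in 15 of 29 cases and higher in 2 (median -0.34). Under vehicle 14 were lower and 1 higher (median -0.37). Ctsh, a cathepsin of the lysosome and of surfactant processing, fell from 891 ± 510.5 to 48.4 ± 13.7 CPM (SD, n = 5; -4.07 ± 0.30). Npc2, which hands cholesterol out of the lysosome, fell from 3519 ± 2532 to 951 ± 382 CPM (-1.76 ± 0.24). From batches 2 and 3 alone 7 were lower and 0 higher.

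Of the NRF2 and antioxidant genes, 7 of 25 were higher and 6 lower, against 20% higher and 19% lower over all tested genes. Txn1, thioredoxin, and Gclm, a subunit of the enzyme that limits glutathione synthesis, were measured at 1.37 ± 0.17 and 1.47 ± 0.21, and catalase (Cat) at 1.09 ± 0.15. Hmox1, heme oxygenase 1, was at -1.67 ± 0.16 under IFNγ and -0.47 under vehicle. The unfolded protein and integrated stress response had 8 of 26 higher and 4 lower. Its amino acid enzymes Phgdh and Asns were higher by 1.89 ± 0.29 and 1.14 ± 0.23, with no call from batches 2 and 3 alone. Ddit4, an inhibitor of mTOR, was at -1.41 ± 0.34, with no call without a batch term or without the 4 IFNγ libraries of batches 2 and 3. Without those libraries 14 of the list were higher and 2 lower, and from batches 2 and 3 alone 0 were higher and 3 lower.

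Respiratory chain subunits encoded in the nucleus had 4 of 35 higher and 5 lower, against 20% higher and 19% lower over all tested genes. Without the 4 IFNγ libraries of batches 2 and 3, 17 were higher and 6 lower, against 0 and 6 from batches 2 and 3 alone. Cox7a2 and Sdhb were at -1.2 ± 0.15 and -0.83 ± 0.13. Of the genes of glycolysis and hypoxia, 5 of 26 were higher and 5 lower, near the shares over all tested genes. The glucose transporter Slc2a3 was at -4.89 ± 0.39, Pfkfb3, which speeds up glycolysis, at -1.87 ± 0.33 and Pdk1, which keeps pyruvate out of mitochondria, at 1.09 ± 0.24. The p53 and apoptosis genes had 3 of 24 higher and 7 lower, or 9 and 8 without those 4 libraries and 0 and 5 from batches 2 and 3 alone. Bcl2l11 (BIM) was at -0.96 ± 0.17, Pmaip1 (NOXA) at -1.38 ± 0.28 and Trp53 at 0.65 ± 0.16. Bcl2l11 and Trp53 did not pass from batches 2 and 3 alone, and Trp53 did not without a batch term.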
